A study of Mus musculus with 12 samples.

Results

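Transcripts of 10 genes of the endoplasmic reticulum (ER) stress response and the integrated stress response were followed in mouse hearts 8 hours after myocardial infarction (MI) or sham surgery. The genes were Hspa5, Hsp90b1, Calr, Herpud1 and Xbp1 of the ER stress response, and Atf4, Asns, Ppp1r15a, Ddit3 and Trib3 of the integrated stress response. They were chosen by name: every probe set annotated with 1 of these symbols and no other was taken, which gave 22 probe sets for 10 of the 12393 genes named on the array. A probe set is a group of short probes against 1 transcript. Each gene is represented by its brightest probe set, and all 10 were among the 8111 genes bright enough to be tested.

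The hearts came from 12 C57Bl/6 mice, 3 in each of 4 groups, with 1 single-colour Affymetrix array per mouse. Infarction was caused by ligation of the left anterior descending artery. Wake MI and wake sham mice had surgery between ZT13 and ZT15 and gave their hearts at ZT23, and sleep MI and sleep sham mice had surgery between ZT1 and ZT3 and gave their hearts at ZT11, where ZT, zeitgeber time, is the number of hours since the lights came on. The hour of surgery and the hour of collection differ together between wake and sleep groups and cannot be told apart. All animals were of the same strain, all had surgery, and the labels name no genotype, drug or age. The MI samples are labelled as infarcted myocardium, while for sham hearts the labels do not say which part was taken. Replicates are labelled as separate mice, so p-values measure the spread between these animals.

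When unfolded proteins build up in the ER, the sensors PERK, IRE1 and ATF6 are released and raise the cell's folding and disposal capacity. ATF6 and spliced XBP1 switch on chaperones such as BiP, the product of Hspa5, through ER stress elements in promoters. PERK belongs to a group of kinases that phosphorylate eIF2alpha, which slows translation in general and favours translation of ATF4, and other kinases of that group answer to amino acid shortage, haem shortage or double-stranded RNA. ATF4 then raises amino acid supply genes such as Asns, and GADD34, the product of Ppp1r15a, reverses the phosphorylation. In the heart, low oxygen, lost nutrients and disturbed calcium after a coronary occlusion are known triggers of these pathways.

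Promoter sequence was searched for the elements through which these factors are known to act. RefSeq windows from 250 bases before to 50 bases after the start of the gene (assembly GRCm38.p6) matched 10 of 10 genes. The full ER stress element, CCAAT followed by 9 bases and CCACG, was found in 3 of the 10, Hspa5, Calr and Hsp90b1, the last of which had it on both strands. It was present in 0.119% of all 32851 windows of that length. Other spacings or orientations of CCAAT and CCACG were not searched. The core of the C/EBP-ATF response element, TGATGNAA, through which ATF4 acts, was found in Asns, Herpud1 and Trib3, and in 3.97% of all windows. CCACG alone, which is also the end of each full element, was found in 7 of the 10 and in 32.8% of all windows. TGACGTGG, the core of the element bound by ATF6 and XBP1, was in 0 of the 10 and in 0.676% of all windows. All motifs were searched on both strands, and a match is a description of the letters and not a shown binding site. Herpud1 was the only member that passed the test between wake and sleep among sham hearts, by a narrow margin. The windows below are those of the 3 ER chaperone genes, of Asns, the classic ATF4 target, and of Herpud1. They are written 5′ to 3′ on the strand of the gene, and capitals mark the motif letters named above, on either strand (a match on the other strand appears as its reverse complement).
Hspa5 (chr2:34771840-34772139, plus strand): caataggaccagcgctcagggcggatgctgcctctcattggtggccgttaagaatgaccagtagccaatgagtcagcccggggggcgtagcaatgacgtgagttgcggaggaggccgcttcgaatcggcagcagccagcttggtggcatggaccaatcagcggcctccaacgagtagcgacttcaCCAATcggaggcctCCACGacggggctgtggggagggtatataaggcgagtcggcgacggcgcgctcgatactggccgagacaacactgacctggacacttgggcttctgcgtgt
Hsp90b1 (chr10:86705395-86705694, minus strand): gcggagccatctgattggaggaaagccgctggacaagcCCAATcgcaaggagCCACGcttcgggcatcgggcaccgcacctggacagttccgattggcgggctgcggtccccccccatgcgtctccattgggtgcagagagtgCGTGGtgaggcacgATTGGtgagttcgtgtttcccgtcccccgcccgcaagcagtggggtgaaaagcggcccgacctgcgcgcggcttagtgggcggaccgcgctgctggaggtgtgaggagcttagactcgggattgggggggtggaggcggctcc
Calr (chr8:84846882-84847181, minus strand): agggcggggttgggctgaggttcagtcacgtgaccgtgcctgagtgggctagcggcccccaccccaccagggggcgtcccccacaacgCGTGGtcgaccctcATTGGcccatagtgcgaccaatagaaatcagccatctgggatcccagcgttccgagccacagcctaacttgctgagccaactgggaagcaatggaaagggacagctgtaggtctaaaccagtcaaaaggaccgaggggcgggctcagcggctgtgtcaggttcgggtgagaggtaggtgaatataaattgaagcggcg
Asns (chr6:7693160-7693459, minus strand): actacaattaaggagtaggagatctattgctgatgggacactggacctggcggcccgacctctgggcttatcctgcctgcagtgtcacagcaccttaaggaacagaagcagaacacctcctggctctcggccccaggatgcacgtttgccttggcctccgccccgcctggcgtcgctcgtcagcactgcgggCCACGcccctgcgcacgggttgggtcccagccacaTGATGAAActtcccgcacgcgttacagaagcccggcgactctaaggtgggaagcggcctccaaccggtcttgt
Herpud1 (chr8:94386179-94386478, plus strand): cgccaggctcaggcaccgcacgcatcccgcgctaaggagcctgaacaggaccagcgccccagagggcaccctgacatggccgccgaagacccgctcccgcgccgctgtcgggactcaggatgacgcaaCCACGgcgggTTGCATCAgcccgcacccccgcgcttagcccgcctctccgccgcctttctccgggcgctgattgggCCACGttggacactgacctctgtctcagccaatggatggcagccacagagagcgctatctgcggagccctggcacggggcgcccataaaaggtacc
The full element of Hspa5 lay from position -65 to -47 relative to the start, that of Calr from -162 to -144, and those of Hsp90b1 from -212 to -194 and from -107 to -89. The C/EBP-ATF core lay from -23 to -16 in Asns and from -112 to -105 in Herpud1. The windows of Xbp1 and Ddit3 held none of the 4 motifs.

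**Figure D1:**
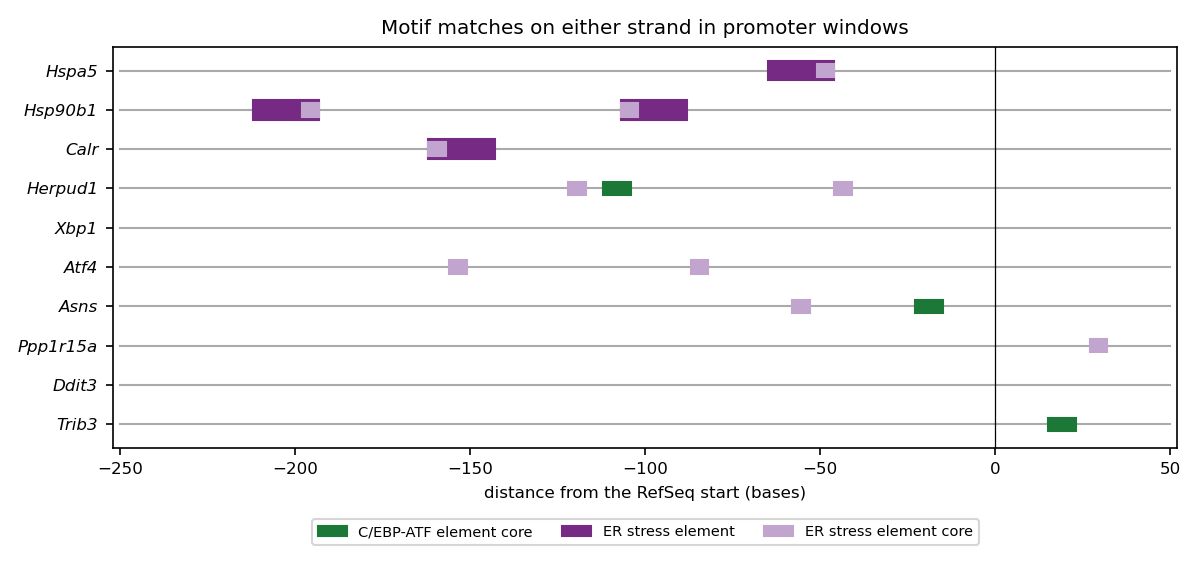
Positions of motif matches in the promoter windows of the 10 genes, with the distance from the RefSeq start in bases on the x axis and 1 line per gene. Purple bars are full ER stress elements, pale bars the CCACG core and green bars the C/EBP-ATF core. The full element appears in 3 genes, and the lines of Xbp1 and Ddit3 are empty.

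The arrays had been brought to a common level, and all 12 cardiomyocyte markers reached the level filter on the mean of the 12 arrays, as the labelled tissue requires. A ratio that grows with RNA breakdown, that of beta-actin control probe sets at the 3′ and the 5′ end, was lowest in wake sham hearts, from 1.76 to 1.81. It was 2.17 to 3.31 in wake MI, 2.09 to 2.92 in sleep MI and 1.94 to 2.49 in sleep sham hearts. The summed signal of 11 neutrophil markers was 290.0 to 789 in wake sham and 549 to 2059 in sleep sham hearts, against 1327 to 3276 in wake MI and 1747 to 3174 in sleep MI hearts. The neutrophil sums of MI and sham did not overlap in wake hearts and overlapped in part in sleep hearts. In pieces of tissue, more or fewer cells of a type and more or less RNA per cell cannot be told apart. The part of RNA breakdown or of cell makeup in the results was not tested beyond the values given beside them.

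MI hearts had higher transcript levels of 4 of the 10 genes and lower levels of none, over both times of day. Ppp1r15a rose most, followed by Atf4 and Asns, and the smallest of the 4 changes was that of Hspa5. Changes are log2 differences of signal + 16 from limma, fitted over all 8111 genes, with Benjamini-Hochberg adjusted p-values and calls at an adjusted p below 0.05. Over both times 8.57% of all tested genes were called higher and 13.6% lower. The median change of the 10 genes was 0.06 on the log2 scale, against -0.06 over all tested genes. The other 6 genes, Ddit3, Trib3, Xbp1, Herpud1, Hsp90b1 and Calr, did not pass the test, and none of them had an unadjusted limma p below 0.05. Such a p was found for 4 of the 10 genes and for 2960 of all 8111 genes.

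Ppp1r15a codes for the subunit that guides a phosphatase to eIF2alpha. Its signals in sham hearts were 85.8, 147 and 100.2 in the wake group and 139, 170.5 and 115 in the sleep group. In MI hearts they were 286, 364 and 277 in the wake group and 327, 296 and 304 in the sleep group. All MI arrays lay above all sham arrays, at both times of day, and the MI means of both times were alike at 309 ± 47.9 and 309 ± 16.4 (SD, n = 3 each). The change over both times was 2.33-fold (log2 1.22, SE 0.12, limma adjusted p = 2.30e-05). It was 1.37 in wake hearts (adjusted p = 2.63e-04) and 1.06 in sleep hearts (adjusted p = 0.00573) on the log2 scale. The call held at both times under each of the other settings tried and without each of the 12 arrays. With the beta-actin ratio in the model the log2 change over both times was 1.28 (limma adjusted p = 0.0012).

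Atf4 codes for the transcription factor at the centre of the integrated stress response, whose protein is mainly set by translation. Its signals were 663, 612 and 548 in wake sham and 603, 581 and 488 in sleep sham hearts, against 874, 1092 and 749 in wake MI and 931, 753 and 1106 in sleep MI hearts. The lowest MI array lay above the highest sham array at each time of day. The gene was 1.55-fold higher in MI hearts over both times (log2 0.63, SE 0.11, limma adjusted p = 0.00157), with a log2 change of 0.55 in wake hearts (adjusted p = 0.0262) and 0.71 in sleep hearts (adjusted p = 0.028). A dimmer probe set of Atf4, with signals of 39.6 to 152, rose too when all probe sets were tested one by one (log2 0.69 over both times, limma adjusted p = 0.0181). A further probe set of the gene, with signals of 0.57 to 7.92, stayed below the level filter of 17.3 and was not tested. The wake call was lost without any of wake MI replicate 2 and wake sham replicates 2 and 3 (limma adjusted p from 0.0549 to 0.106) and with the beta-actin ratio in the model (log2 0.52, adjusted p = 0.217). The sleep call was lost without any of sleep MI replicates 1 and 3 and sleep sham replicates 1 and 3 (limma adjusted p from 0.0597 to 0.119), with the mean of the gene's probe sets (log2 0.44, adjusted p = 0.134), and without both arrays with the highest beta-actin ratios (log2 0.58, adjusted p = 0.0614), while the call over both times held in all of these. That mean includes the probe set below the level filter. The dimmer tested probe set had a log2 change of 0.51 in sleep hearts (limma adjusted p = 0.367).

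Asns codes for asparagine synthetase, which makes asparagine from aspartate and is a textbook target of ATF4. Its signals were low but above the filter, with 28.6, 44 and 43.6 in wake sham and 40.8, 43.3 and 35.6 in sleep sham hearts. They were 57.3, 87 and 55.8 in wake MI and 63.4, 80.7 and 74.8 in sleep MI hearts. Again no MI array fell among the sham arrays of its time of day. The change over both times was 1.55-fold (log2 0.63, SE 0.12, limma adjusted p = 0.00228). It was 0.59 in wake hearts (adjusted p = 0.0252) and 0.67 in sleep hearts (adjusted p = 0.0465) on the log2 scale. The sleep call is a near one: with single arrays left out it held only without 1 of wake MI replicates 2 and 3 and wake sham replicate 1 (limma adjusted p up to 0.156 otherwise), and it held under 6 of 12 other settings. It was lost with 1 added before the log (limma adjusted p = 0.0541), no level filter (0.0944), the mean of both probe sets (log2 0.45, adjusted p = 0.226), probe sets one by one (0.0515), the beta-actin ratio in the model (0.0564) and without both arrays with the highest beta-actin ratios (0.101). The wake call was lost without wake MI replicate 2 (log2 0.42, limma adjusted p = 0.103), without wake sham replicate 1 (log2 0.45, adjusted p = 0.111), with only the groups compared in the fit (log2 0.59, adjusted p = 0.0643) and with the beta-actin ratio in the model (log2 0.72, adjusted p = 0.103). The dimmer probe set of Asns had a log2 change of 0.41 over both times when tested one by one (limma adjusted p = 0.101).

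Ddit3 codes for CHOP, the transcription factor linked to cell death in prolonged ER stress, and Trib3 for a pseudokinase that CHOP and ATF4 induce and that curbs both. Neither passed the test in any of the 6 comparisons. Ddit3 signals were 163, 124 and 185 in wake sham and 160.1, 89.5 and 168 in sleep sham hearts, against 124, 138 and 109 in wake MI and 114, 106 and 125 in sleep MI hearts. The groups overlapped at both times, and 1 sleep sham array, at 89.5, was the lowest of all 12. The log2 change over both times was -0.25 (95% interval -0.55 to 0.04, limma adjusted p = 0.196). Without that sleep sham array, replicate 2, it was -0.38 (adjusted p = 0.0215). Trib3 signals ranged from 14 to 43.2 over the 12 arrays, and the log2 change over both times was -0.10 (95% interval -0.41 to 0.20, limma adjusted p = 0.651). These signals lay near the filter signal of 17.3, where the value added before the log makes changes look smaller. The dimmer probe set of Trib3 had a log2 change of -0.13 over both times when tested one by one (limma adjusted p = 0.534).

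**Figure D2:**
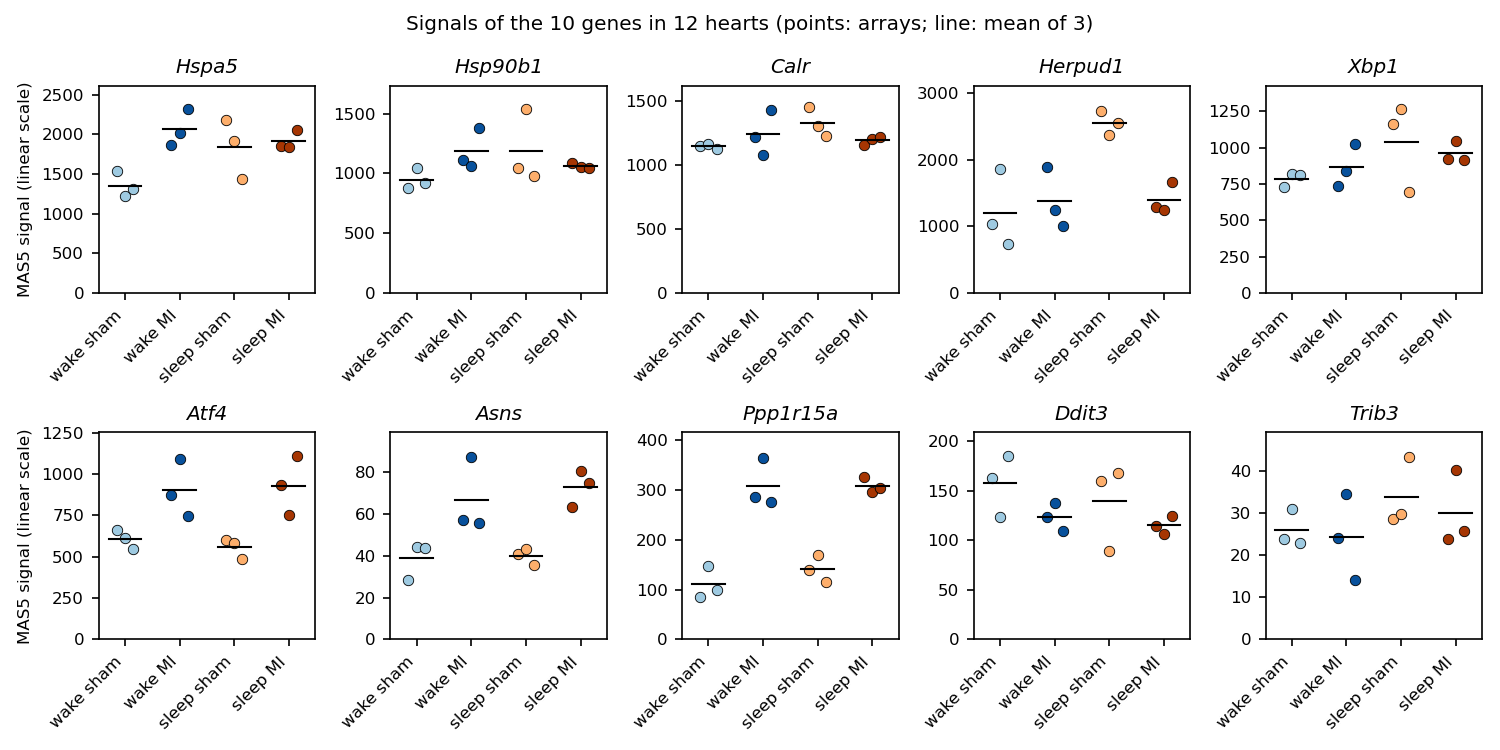
MAS5 signals of the 10 genes on a linear scale (y axis, from 0) in the 4 groups (x axis), with 1 point per array and a line at the mean of 3 arrays. The points of Ppp1r15a, Atf4 and Asns lie higher in both MI groups than in the sham group of the same time, while Herpud1 is highest in the sleep sham group.

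Among the ER genes, Hspa5 was higher in MI hearts of the wake group, and no ER gene passed the test in sleep hearts. Hspa5 codes for BiP, the main chaperone of the ER lumen, which also holds the stress sensors inactive. Its signals were 1534, 1219 and 1310.0 in wake sham hearts and 1863, 2017 and 2319 in wake MI hearts. In sleep hearts they were 2183, 1915 and 1443 in the sham group and 1854, 1838 and 2050.4 in the MI group. The wake MI arrays lay above all wake sham arrays, while both sleep groups overlapped, with 1 sleep sham array, at 1443, inside the wake sham range. In wake hearts the gene was 1.52-fold higher after MI (log2 0.60, SE 0.14, limma adjusted p = 0.0109), and in sleep hearts the log2 change was 0.07 (95% interval -0.23 to 0.37, adjusted p = 0.851). The wake change minus the sleep change was 0.53 (SE 0.20, 95% interval 0.10 to 0.96, limma adjusted p = 0.372), which did not pass the test. Among sham hearts, wake minus sleep was -0.43 on the log2 scale (limma adjusted p = 0.178). The wake change, the difference of changes and the sham difference all use the wake sham group, which also had the lowest beta-actin ratios. With that ratio as a covariate in the model the log2 change of Hspa5 was 0.31 in wake hearts (limma adjusted p = 0.324) and 0.15 over both times (adjusted p = 0.438), against 0.60 and 0.34 (adjusted p = 0.0279) without it. The call over both times was also lost with quantile normalization (log2 0.29, adjusted p = 0.0537), without both arrays with the highest beta-actin ratios (log2 0.27, adjusted p = 0.112) and without any 1 of 5 of the 12 arrays, wake MI replicate 3, wake sham replicates 2 and 3, sleep MI replicate 3 and sleep sham replicate 3, with adjusted p-values up to 0.0638. A dimmer probe set of Hspa5 had a log2 change of 0.35 in wake hearts when tested one by one (limma adjusted p = 0.0507).

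Hsp90b1 codes for GRP94, the HSP90 family member of the ER, and Calr for calreticulin, a calcium-binding chaperone of glycoproteins. Neither brightest probe set passed the test in any comparison. Hsp90b1 signals were 882, 1042 and 920.3 in wake sham, 1114, 1064 and 1380.4 in wake MI, 1046, 1541 and 977 in sleep sham and 1087, 1053 and 1049 in sleep MI hearts. The wake MI arrays lay above the wake sham arrays by a narrow margin, and the log2 change was 0.31 (95% interval -0.01 to 0.64, limma adjusted p = 0.165). The other probe set of Hsp90b1 went the opposite way in wake hearts, with signals of 194, 259 and 171 in sham and 141, 119.7 and 126 in MI hearts. When probe sets were tested one by one it was lower after wake MI (log2 -0.61, SE 0.16, limma adjusted p = 0.0209), so no direction can be given for this gene. Calr signals stayed between 1080.3 and 1450.4 on all 12 arrays, with a log2 change over both times of -0.02 (95% interval -0.18 to 0.14, limma adjusted p = 0.881). The 3 sleep sham arrays of Calr lay above both the wake sham and the sleep MI arrays, by log2 differences that did not pass the test (adjusted p = 0.414 and 0.521).

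Xbp1 codes for the transcription factor that IRE1 activates by splicing its mRNA. A probe set signal does not tell the spliced from the unspliced form, so it says nothing of that step. Signals of the brightest probe set were 726, 822 and 811 in wake sham, 736, 836 and 1022 in wake MI, 1164, 1266 and 692 in sleep sham and 925, 1044 and 918 in sleep MI hearts. The groups overlapped in all 4 pairings. The log2 change with MI over both times was 0.03 (95% interval -0.25 to 0.31, limma adjusted p = 0.9), and the other 3 probe sets of the gene gave 0.04, 0.08 and 0.26, with no call.

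Herpud1 codes for an ER membrane protein that helps pass misfolded proteins to degradation. It was the only member called between wake and sleep among sham hearts, by a narrow margin. Its signals were 2727, 2376 and 2555 in sleep sham hearts, against 1034, 1856 and 734 in wake sham hearts. They were 1896, 1243 and 1013 in wake MI and 1294, 1240.4 and 1672 in sleep MI hearts. The sleep sham arrays stood above all 9 other arrays, which overlapped one another. Wake minus sleep among sham hearts was -1.17 on the log2 scale (SE 0.27, limma adjusted p = 0.0491), 2.25-fold higher in the sleep group. Among MI hearts it was -0.06 (95% interval -0.64 to 0.53, limma adjusted p = 0.986). The other probe set of Herpud1 had -1.05 for the same difference (limma adjusted p = 0.0936 when tested one by one). This call is a near one: it held under 3 of 13 other settings and without 3 of the 12 arrays taken singly, namely wake MI replicates 1 and 3 and wake sham replicate 2, with log2 differences of -1.53 to -0.87 in all of them. With the beta-actin ratio in the model it was -1.20 (limma adjusted p = 0.137). MI minus sham was -0.87 in sleep hearts (95% interval -1.45 to -0.28, limma adjusted p = 0.111) and 0.25 in wake hearts (adjusted p = 0.558). The difference between these changes was 1.12 (SE 0.39, 95% interval 0.29 to 1.94, limma adjusted p = 0.333). With only the sleep groups in the fit, the change in sleep hearts had an adjusted p of 0.00994, and without wake sham replicate 2 it was 0.0403. The sleep sham arrays enter the sham and the sleep comparison alike, so these values are not independent of each other.

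Set side by side, wake hearts had 4 of the 10 genes called higher after MI and sleep hearts 3, with none called lower. In sleep hearts 1 further member, Herpud1, had an unadjusted limma p below 0.05, on the lower side, and in wake hearts none had. Such a p was thus found for 4 of the 10 genes at each time. Of all 8111 genes, 2688 had such a p in wake hearts and 1396 in sleep hearts. Over all tested genes 7.8% were called higher and 10.6% lower in wake hearts, and 1.69% and 0.986% in sleep hearts. Arrays of MI and sham hearts did not overlap for 5 of the 10 genes in wake hearts and for 5 in sleep hearts, where 35.2% and 23.5% of all tested genes did not overlap. Among sham hearts 1 member, Herpud1, was called lower in wake than in sleep hearts, beside 1.1% of all genes called lower and 0.419% called higher. Sham arrays of both times did not overlap for 2 members, Herpud1 and Calr, and for 20.1% of all genes. Among MI hearts 0 of the 10 genes were called between wake and sleep, beside 0.037% of all genes called in each direction. An unadjusted limma p below 0.05 was found for 0 of the 10 and for 539 of all 8111 genes in that comparison. No member had MI arrays that were separate between the times, against 10.9% of all genes. For the difference of the MI effect between the times 0 genes were called in either direction, members or not (0% by limma), and 2 of the 10 members, Herpud1 and Hspa5, had an unadjusted p below 0.05, as had 848 of the 8111 genes.

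**Figure D3:**
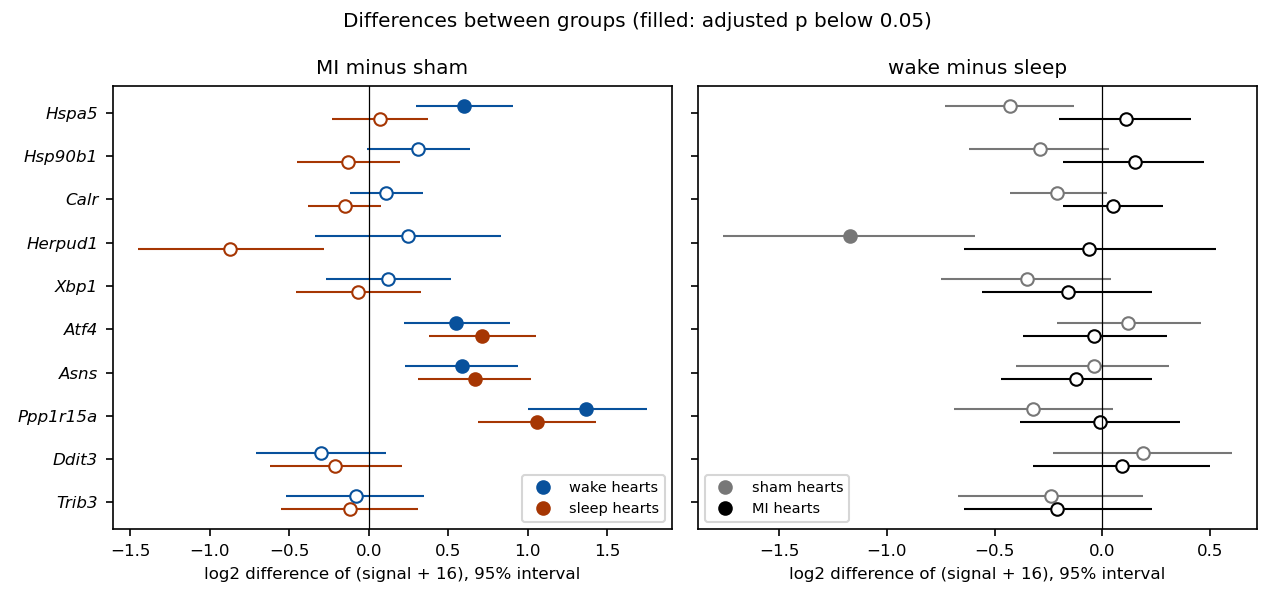
Log2 differences of signal + 16 for the 10 genes with 95% intervals from limma (x axes), MI minus sham on the left and wake minus sleep on the right, filled where the adjusted p was below 0.05. Ppp1r15a, Atf4 and Asns are filled in both wake and sleep hearts, Hspa5 in wake hearts, and Herpud1 for wake minus sleep among sham hearts.

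**Figure D4:**
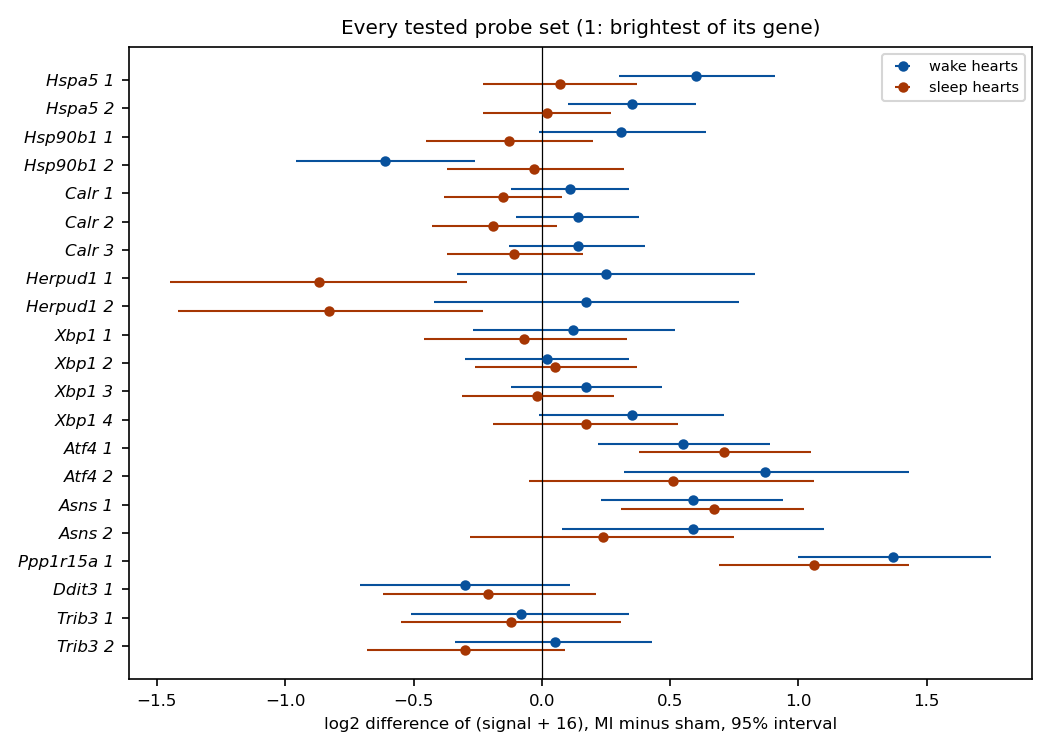
Log2 differences of signal + 16, MI minus sham, for each of the 21 tested probe sets (1 row each, the brightest of a gene numbered 1) with 95% intervals from limma, in wake and sleep hearts. The probe sets of Herpud1 and those of Calr lie together, while those of Hsp90b1 lie on opposite sides of 0 in wake hearts.

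Some of the members were closer to another member than to a gene that does not vary, and others were not. Likeness was measured as the root mean square difference of centred log2 values over the 12 arrays, which share the 4 groups and have no independent points beyond them. Atf4 and Asns were each other's nearest members at 0.22, beside an own spread of 0.36 for each. The own spread is the same measure against a gene that does not vary. The nearest member of Ppp1r15a was Asns at 0.35 (own spread 0.65). That of Hspa5 was Calr at 0.23 (own spread 0.28), and Xbp1 was nearest to Hsp90b1 at 0.19 (own spread 0.26). Calr varied little, with an own spread of 0.12, below the 0.18 to its nearest member, Hsp90b1. Ddit3 (own spread 0.27) and Trib3 (0.25) were also farther from every member than from a gene that does not vary. Their nearest member was Calr, at 0.32 and 0.31. Of all other tested genes, those most like Ppp1r15a were Ifrd1 (0.17) and Tinagl1 (0.20), and those most like Atf4 were Aopep (0.12) and Bag2 (0.14). Asns was most like Mmp14 (0.12) and Tes (0.14), and Hspa5 most like Lclat1 (0.09) and Nus1 (0.12).

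The wider pathway did not move in 1 direction. Of 26 tested ATF4 and CHOP target genes, 5 rose and 4 fell over both times, with a median log2 change of 0.00, beside 8.57% and 13.6% of all tested genes and an all-gene median of -0.06. In wake hearts 5 of the 26 were called higher and 1 lower, beside 7.8% and 10.6% of all genes, and in sleep hearts 1 higher and 2 lower, beside 1.69% and 0.986%. The largest rise was that of Atf3, a transcription factor gene of the early stress response, whose mean signal was 526 ± 233 in wake MI and 696 ± 185 in sleep MI hearts, against 35.6 ± 1.47 and 36 ± 10.5 in sham hearts (SD, n = 3 each; log2 3.52, SE 0.20, limma adjusted p = 2.27e-07). Slc7a5, a carrier of large neutral amino acids, rose by log2 0.82 over both times, with 1.06 in wake hearts (limma adjusted p = 0.00536) and 0.58 in sleep hearts (adjusted p = 0.192). Slc7a5 signals were 11.1 to 15.5 in wake sham hearts, below the filter signal of 17.3, and 9.57 to 31.9 in sleep sham hearts. In MI hearts they were 37.4 to 54.1 in the wake and 34 to 47 in the sleep group. Cebpb, a transcription factor of inflammation and stress, rose by 0.58 over both times, with 1.05 in wake hearts (limma adjusted p = 0.00372) and 0.11 in sleep hearts (adjusted p = 0.832). Cth, an enzyme of cysteine synthesis, Bcl2l11, which codes for the death factor BIM, and Pck2, a mitochondrial enzyme of gluconeogenesis, fell by 0.65, 0.55 and 0.43 over both times. Cth signals were near the filter signal in MI hearts, at 13.2 to 18.1 in the wake and 16.4 to 19.1 in the sleep group. In sham hearts they were 14.1 to 35.1 and 43.8 to 80.2. Cth changed by -0.24 in wake hearts (limma adjusted p = 0.448) and -1.07 in sleep hearts (adjusted p = 0.0166), and Bcl2l11 by -0.24 (adjusted p = 0.418) and -0.86 (adjusted p = 0.0311). For these genes a difference of the MI effect between the times did not pass the test. None of the 18 tested cytosolic aminoacyl-tRNA synthetase genes, which charge tRNAs and include known ATF4 targets, passed the test, and their median was 0.11. At an unadjusted limma p below 0.05, 3 of the 18 were higher and 0 lower over both times. Of all 8111 tested genes, 2960 had such a p in either direction. With the mean of each gene's probe sets 3 of the 18 were called higher, and with median centring 2. Of 13 tested genes for eIF2alpha kinases, phosphatase subunits and eIF2B, 3 rose and 2 fell over both times, with 3 called higher and 0 lower in wake hearts and 0 called in sleep hearts. With the mean of each gene's probe sets 1 of the 13 was called higher and 2 lower over both times. Eif2ak4, the kinase GCN2 that senses uncharged tRNA, rose by 0.48 over both times (limma adjusted p = 0.00646), with 0.81 in wake hearts (adjusted p = 0.00327) and 0.15 in sleep hearts (adjusted p = 0.656). The wake change of Eif2ak4 minus its sleep change was 0.65 (limma adjusted p = 0.326). Eif2ak4 signals were low, at 20.3 to 27.1 in wake sham and 48.8 to 57.2 in wake MI hearts. Over both times Ppp1r15b, the constitutive relative of Ppp1r15a, rose by 0.31 and the eIF2B subunit gene Eif2b2 by 0.27. Another eIF2B subunit gene, Eif2b1, fell by 0.31 and Ppp1ca, a catalytic phosphatase subunit, by 0.23.

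Of the genes of folding, disposal and translocation more were called lower than higher, as of all tested genes, except that with median centring ER-associated degradation had 3 in each direction. Of 32 ER chaperones and folding enzymes 2 rose and 7 fell over both times, with a median of -0.08 beside -0.06 over all genes. Of all tested genes 8.57% were called higher and 13.6% lower over both times. Dnajc3, a co-chaperone of BiP, rose by log2 0.46, and Calu, a calcium-binding protein of the secretory pathway, by 0.19. Fkbp2, a prolyl isomerase, Pdia3, a disulfide isomerase that works with calreticulin, and Sdf2 fell by 0.46, 0.37 and 0.34. Of 25 genes of ER-associated degradation 3 rose, Ubxn4, Ube2g2 and Vcp, by 0.27, 0.31 and 0.21, and 5 fell, among them Rnf5, Derl2 and Ngly1 by 0.47, 0.33 and 0.28. Of 21 genes of ER translocation 1 rose, Ssr1, by 0.24, and 4 fell, among them Sec61b, a subunit of the translocation channel, by 0.47, Spcs2 by 0.28 and Ssr4 by 0.26. Of 11 genes for stress sensors and membrane-bound factors 0 rose and 1 fell, Mbtps1, the protease that first cuts ATF6, by 0.24. With the mean of each gene's probe sets, 1 chaperone was called higher and 7 lower over both times. For ER-associated degradation these counts were 0 and 5, for translocation 0 and 2 and for the sensors 0 and 0. In wake hearts 1 chaperone was called higher and 5 lower, 1 and 2 genes of ER-associated degradation, 0 and 4 of translocation and 0 and 0 of the sensors. The shares of all tested genes in wake hearts were 7.8% higher and 10.6% lower. In sleep hearts 0 genes of these 4 lists were called, while at an unadjusted limma p below 0.05 the chaperones had 0 higher and 6 lower, ER-associated degradation 0 and 3, the sensors 0 and 1 and translocation 0 and 0, where 1396 of all 8111 genes had such a p. Among 8 cytosolic relatives of the ER chaperones 5 rose and 0 fell, with a median of 0.40. Hspa1a, an inducible cytosolic heat shock protein, rose by 3.82 and its near-identical copy Hspa1b by 4.88, though probes for one may read the other, and Hsp90aa1 rose by 0.81.

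**Figure D5:**
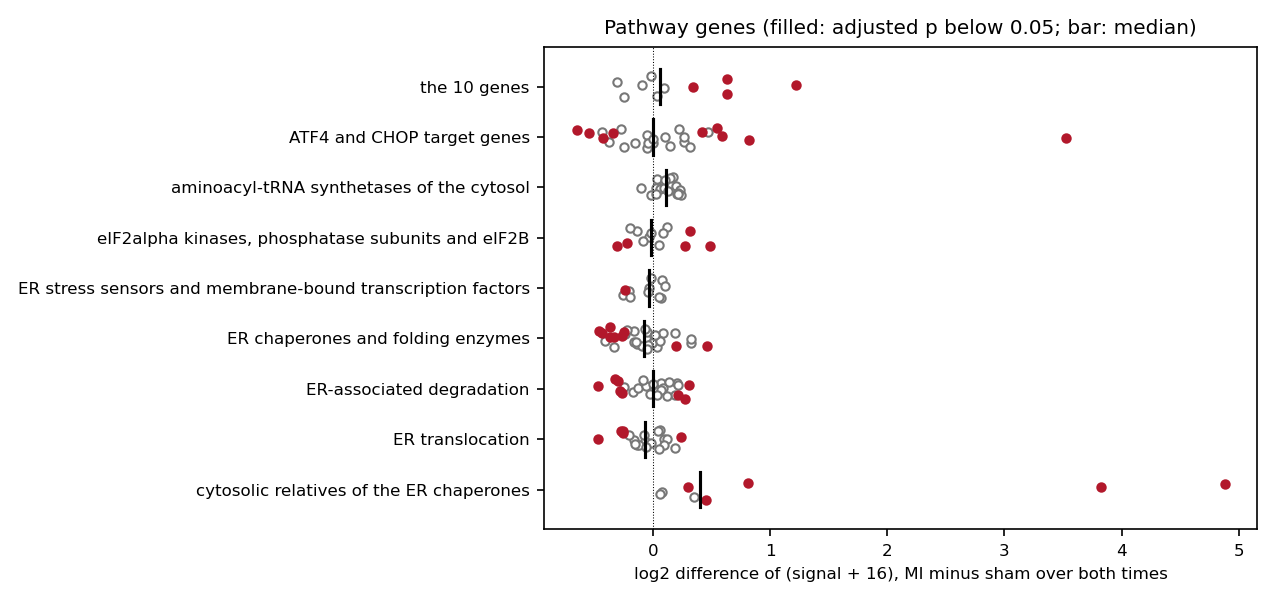
Log2 differences of signal + 16, MI minus sham over both times (x axis), for the 10 genes and the tested genes of 8 pathway lists (rows), 1 point per gene, filled where the limma adjusted p was below 0.05, with a bar at the median. The row of the ER chaperones holds 2 filled points above 0 and 7 below, and the row of the cytosolic relatives reaches 4.88.

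Markers of other cells moved with the comparison as well. Over both times 7 of 8 tested neutrophil markers were called higher after MI (median log2 1.29), 2 of 12 macrophage and monocyte markers lower and 1 higher, 3 of 9 fibroblast markers lower, 2 of 12 cardiomyocyte markers higher, and 3 of 9 endothelial markers higher and 2 lower. The shares of all tested genes were 8.57% higher and 13.6% lower. In wake hearts the summed fibroblast signal was 8289.7 to 12649 in sham and 5772 to 7469 in MI hearts, which do not overlap, while in sleep hearts it was 7815 to 11034 and 7933 to 10319. The summed macrophage and monocyte signal was 6709.9 to 10937 in wake sham and 5296 to 6184 in wake MI hearts, also without overlap. In sleep hearts it was 6159 to 7218 in sham and 6499 to 7003 in MI hearts. Of these 12 tested markers 1 was called higher and 3 lower in wake hearts, beside 7.8% and 10.6% of all tested genes. Of 7 plasma cell markers, 5 lay below the level filter, and the sums stayed between 49 and 101 on all 12 arrays. In sleep hearts the median log2 change of the 8 tested neutrophil markers was 0.85, with 1 called higher and 4 higher at an unadjusted limma p below 0.05, and the median neutrophil sum was 3006 in MI and 1317 in sham hearts. Of all 8111 genes, 1.69% were called higher in sleep hearts and 1396 had such a p in either direction. The part of neutrophils, macrophages, monocytes and fibroblasts in the changes of the 10 genes was not tested.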

How the data were processed

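Heart RNA of 12 mice, extracted with Trizol per the labels' protocols, was hybridised to single-colour Affymetrix arrays. The authors deposited 1 intensity per probe set and array on a linear scale, made with MAS5 per the submitters' processing notes, with version and settings not given in the sources used here. No further scaling was applied. The labels name no batch or scan date. Control probe sets (64 of 22690) were removed, and 20380 of the rest carried a single gene symbol in the array's annotation table.

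Of 12393 genes, each with its brightest probe set, 8111 with a mean signal of at least 17.3, the 40th percentile over probe sets, were tested. Values were log2(signal + 16), so fold changes understate those of dim genes. limma 3.58.1 in R 4.3.3 fitted 1 mean per group over all 12 arrays with an intensity trend (8 residual degrees of freedom, 13.9 with the prior), two-sided, with Benjamini-Hochberg adjustment within each of 6 comparisons. With 3 against 3 arrays an exact permutation p is at least 0.1, so none was computed. The number of arrays limits the precision. The fit was tested on simulated data.

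The members, gene lists and marker lists were chosen with earlier results of these data known. Of each list, the text names up to 3 called genes per direction with the smallest adjusted p over both times, and for each of the 4 members called over both times the 2 other genes most like it. Alternatives were other values added before the log, level filters, normalizations, probe set rules, variance models, the compared groups alone, the replicate block, the beta-actin ratio as a covariate, each array left out and a stricter threshold. Leaving out both arrays with the highest beta-actin ratios was added after seeing those ratios. Figures were drawn with matplotlib 3.10.9.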

Additional observations from a re-analysis of the deposited data

How the results depend on the processing

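Over both times, the count of 4 members called stayed between 3 and 5 under every setting tried. In wake hearts (4 members called) it was 1 with the beta-actin covariate and 1 at an adjusted p below 0.01, and 2 to 4 with single arrays left out. In sleep hearts (3 called) it was 1 with probe sets averaged by gene, 1 without both arrays with the highest beta-actin ratios, 1 at an adjusted p below 0.01, and 1 to 3 with single arrays left out. For wake against sleep among sham hearts (1 called, Herpud1) it was 0 with 1 added before the log, no level filter, the 60th percentile filter, quantile normalization, the mean of probe sets, probe sets one by one, no intensity trend, only the groups compared, the replicate block, the beta-actin covariate and an adjusted p below 0.01, and 0 to 2 with single arrays left out, where without sleep sham replicate 3 the calls were Hspa5 (log2 -0.59) and Xbp1 (log2 -0.62). The counts of 0 for wake against sleep among MI hearts and for the difference of the MI effect stayed 0 throughout. Except where stated, the cause of these changes was not tested. Asns and Trib3 lie below the 60th percentile filter (signal 60.3) and have no value there.

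The replicate number as a block left 4 members called over both times, 4 in wake and 3 in sleep hearts, and 0 among sham hearts (Herpud1 log2 -1.17, limma adjusted p = 0.0629). Deviations of same-numbered arrays correlated by -0.17 to 0.25 across genes (18 pairs, median -0.01) and those of other pairs by -0.20 to 0.28 (36 pairs, median -0.04). Same-numbered arrays were thus no more alike than others. With 3 arrays per group this cannot tell whether same-numbered animals were handled together, and the labels do not say.

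No value of a member that was called changed sign under any alternative. Of 1175 alternative values of members that were not called, 64 had the other sign and were not called there either; these are counted as moved and not as reversed.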
